A study of Sus scrofa with 31 samples.

Results

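Pig (Sus scrofa) hearts kept for 12 h under the condition labelled HOPE were compared with the same hearts at 0 h, gene by gene. The comparison used 6 of the 31 RNA sequencing libraries of the study: 3 at 12 h from the hearts of pigs 2, 4 and 6, and 3 at 0 h from those same hearts, matched by the pig number in the sample titles. The hearts of pigs 1, 3 and 5, kept under the condition labelled SCS and biopsied at 12 h and 0 h, served as a second set of within-heart changes. The labels do not spell out HOPE and SCS; in heart preservation they usually stand for hypothermic oxygenated perfusion, in which cold oxygenated fluid is pumped through the organ, and static cold storage, in which the organ rests in cold solution. No genotype, breed or age was given for either group, and the labels do not say whether the 0 h biopsy was cut before perfusion began. Of the 21313 genes listed, 14141 had a mean normalised count of at least 10 over the 24 storage libraries and were tested.

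A biopsy of heart muscle holds cardiomyocytes together with endothelium, fibroblasts, smooth muscle, resident and circulating leukocytes and whatever blood is left in the vessels. Cytotoxic T cells and natural killer cells carry granules of perforin and granulysin with which they kill target cells, and interferons secreted by such cells induce antiviral and antigen-presenting genes in their neighbours. Cooling slows transcription, translation and metabolism, while oxygen supply decides whether mitochondria go on making ATP.

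The 6 libraries held 22583205 to 34495476 recovered reads, with 17432 to 18599 genes above 0. The labels name cardiomyocytes as the cell type. Ventricular cardiomyocyte markers were abundant, with 18 of 20 in the table and a summed level of 1630580 to 1928330 normalised counts at 12 h and 1409240 to 2069640 at 0 h, but the tissue was whole myocardium. The 18 endothelial markers summed to 22770 to 44461 at 12 h and 22930 to 69724 at 0 h, and the 16 fibroblast markers to 93132 to 148771 at 12 h and 95866 to 128462 at 0 h. A pair of libraries stood apart from the others of their group. The 12 h library of heart 4 held 19.4 normalised counts of atrial natriuretic peptide (NPPA), against 3679 in that heart at 0 h. The 0 h library of heart 6 held 179022 normalised counts of the slow myosin heavy chain MYH7, against 528134 and 510289 in hearts 2 and 4 at 0 h. It also held the highest summed endothelial level of the 6 libraries. SCS hearts 1, 3 and 5 at 0 h held 308557, 174331 and 198554 of MYH7, and 53651, 72765 and 65395 of summed endothelial level. For both, heart 6 at 0 h lay within the SCS range, and hearts 2 and 4 lay outside it. Mean changes and list medians that moved by over 1.5 times without either library of the pair are followed by the value without it.

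At 12 h of HOPE, transcripts of red cells were higher, and those of cytotoxic lymphocytes, interferon-induced chemokines and antigen presentation lower, than in the same hearts at 0 h. No single gene passed in either direction, however. limma with the pig as a block and Benjamini-Hochberg adjustment over all 14141 genes called 0 higher and 0 lower at an adjusted p under 0.05, and the lowest adjusted p was 0.244. At an unadjusted p under 0.05, 257 genes (1.82%) were higher and 302 (2.14%) lower, which together is 3.95% of the genes tested. That is less than the share of 0.05 that this threshold would pass if no gene differed. On whole reads recovered from the values, edgeR's quasi-likelihood test also called 0 genes, with 938 at an unadjusted p under 0.05. DESeq2 on those reads called 9 higher and 9 lower, with 964 at an unadjusted p under 0.05 and 1645 genes that it left without an adjusted p. Sign alone separated 2125 genes (15.0%) that were higher at 12 h in all 3 hearts and 2065 (14.6%) that were lower in all 3. The genes that moved at least 1.5-fold in all 3 hearts were fewer: 29 higher (0.205%) and 67 lower (0.474%). Levels did not overlap between the 3 libraries at 12 h and the 3 at 0 h for 185 genes that were higher (1.31%) and 228 that were lower (1.61%).

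**Figure D1:**
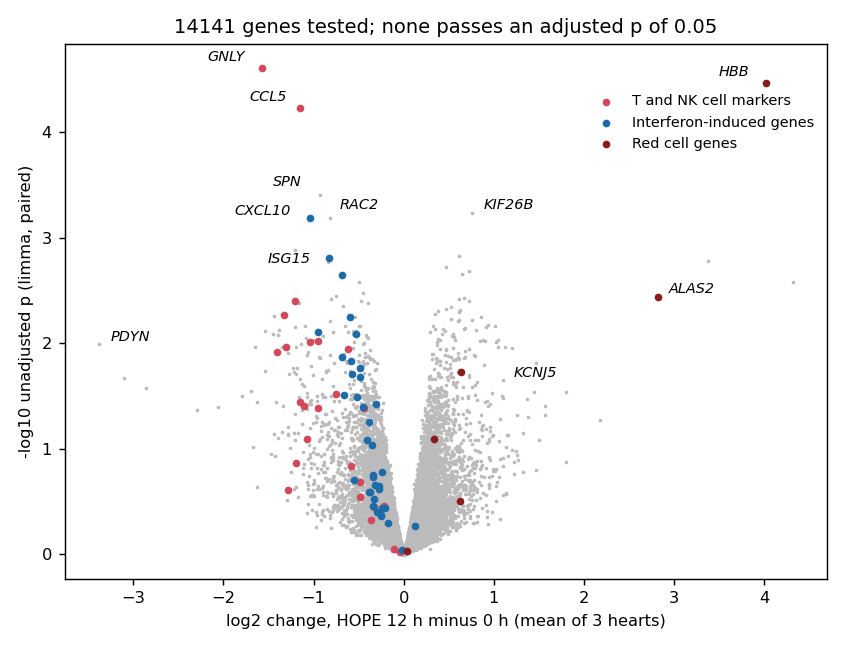
Mean within-heart log2 change (x axis, HOPE 12 h minus 0 h, 3 hearts) against the -log10 unadjusted p from limma with the pig as a block (y axis), for 14141 genes; coloured points are the T and NK cell markers, interferon-induced genes and red cell genes, and named genes are labelled. HBB stands far to the right and GNLY and CCL5 to the upper left, and no gene passes an adjusted p of 0.05.

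Globin and haem synthesis transcripts were several-fold higher, and HBB had the highest change of the genes with a symbol. Beta-globin (HBB, ENSSSCG00000014725, protein coding, chromosome 9, positions 4800683 to 4801941 of Sscrofa11.1), the oxygen-carrying chain of adult haemoglobin, was at 278, 279.5 and 266 normalised counts in hearts 2, 4 and 6 at 12 h, against 7.63, 14.7 and 35.6 at 0 h. The 12 h levels lay close together although the 0 h levels were spread, and the groups did not overlap. The change on log2 of the value plus 1 was 4.02 ± 0.74 (limma, adjusted p = 0.244). Here and below, ± on a log2 change is the SE from the limma fit over all storage libraries, not the spread between HOPE hearts. HBB passed in 2 of the other settings. With total-count scaling its change was 4.11 (limma, adjusted p = 0.00523). Fitted on the 6 HOPE libraries alone it was 4.02 (limma, adjusted p = 0.0399). The erythroid haem synthesis enzyme ALAS2 (chromosome X, 47871519 to 47896041) was at 69.0, 65.5 and 26.7 normalised counts at 12 h, against 5.34, 12.6 and 3.24 at 0 h. Every 12 h level lay above every 0 h level, and the change was 2.82 ± 0.85 (limma, adjusted p = 0.998). Of the red cell list of 20 genes, 11 were in the table and 6 were tested. All but TAL1 were higher in all 3 hearts, that is 5 of 6, against 15.0% of all genes. The membrane skeleton genes ANK1, EPB42 and SPTB changed by 0.63, 0.63 and 0.33 on the log2 scale, and their levels overlapped between times. Only HBB and ALAS2 were at least 1.5-fold higher in all 3 hearts, and the median of the 6 genes was 0.63, or 0.39 without the 0 h library of heart 6. ANK1 and EPB42 changed by 0.31 and 0.42 without that library. ANK1 and SPTB are also expressed in muscle, so they are weak markers of blood. A pair of genes without a symbol, chosen after their values were seen, were also higher. They add no separate support, and what they encode is not given. ENSSSCG00000007978 was at 73.1, 95.0 and 112 normalised counts at 12 h, against 2.29, 16.8 and 11.3 at 0 h. ENSSSCG00000014727 was at 14.1, 26.7 and 17.8 at 12 h and listed at 0 in all 3 libraries at 0 h. Some globin genes are close copies of each other, so reads of HBB may be split between members of the family.

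Transcripts of cytotoxic lymphocytes were lower at 12 h in every heart. Granulysin (GNLY, ENSSSCG00000008228, protein coding, chromosome 3, 59067327 to 59072034), a pore-forming protein of killer cell granules, was at 88.9, 92.3 and 139 normalised counts in hearts 2, 4 and 6 at 12 h, against 256, 204 and 589 at 0 h. The highest 12 h level was below the lowest 0 h level. GNLY had the smallest p of all genes, with a change of -1.58 ± 0.28 (limma, adjusted p = 0.244; DESeq2 on recovered reads -1.62, adjusted p = 0.000259), and of -1.22 without the 0 h library of heart 6. The T cell and NK cell chemokine CCL5 (ENSSSCG00000017705, protein coding, chromosome 12, 39652731 to 39659121) was at 81.5, 68.9 and 124 normalised counts at 12 h, against 146, 139 and 379 at 0 h. Its groups did not overlap either, and it changed by -1.15 ± 0.22 (limma, adjusted p = 0.28; DESeq2 -1.19, adjusted p = 0.00497). Perforin (PRF1), the other pore-forming protein of these granules, was at 4.16, 10.03 and 13.7 at 12 h, against 19.1, 16.8 and 42.9 at 0 h, without overlap. The cystatin CST7, which regulates granule proteases, was at 8.31, 6.02 and 13.03 at 12 h, against 19.8, 23.1 and 26.7 at 0 h. Its groups were also apart.

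The whole list of T and NK cell markers moved alike. Of 34 genes, 32 were in the table and 25 were tested; all 25 had a negative mean change, 20 were lower in all 3 hearts (background 14.6%) and none was higher in all 3. None passed an adjusted p of 0.05, and 14 of the 25 were lower at an unadjusted p under 0.05, against 2.14% of all genes. The median log2 change was -0.96 over the list and 0.01 over all genes tested. By heart it was -0.45, -0.79 and -1.18 in hearts 2, 4 and 6, and without the 0 h library of heart 6 the list's median was -0.56. In hearts 2 and 4 alone, 20 of the 25 were lower in both, against 25.8% of all genes. The receptor and signalling genes of T cells were among them: the co-receptor CD8A changed by -1.07 ± 0.58, the inhibitory receptor CD5 by -1.10 ± 0.50, the kinase LCK by -0.96 ± 0.33 and the receptor-associated adaptor TRAT1 by -1.33 ± 0.42. The activating NK receptor KLRK1 changed by -1.21 ± 0.37 and the fractalkine receptor CX3CR1 by -0.62 ± 0.22 (limma, adjusted p = 0.998 for each of these 6 genes). CD5 was at -0.70 without the 0 h library of heart 6. The summed level of the 32 markers in the table was 989.9, 756 and 1119 normalised counts at 12 h, against 1402, 1264 and 2734 at 0 h. In bulk tissue, fewer lymphocytes and less RNA per lymphocyte cannot be told apart.

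**Figure D2:**
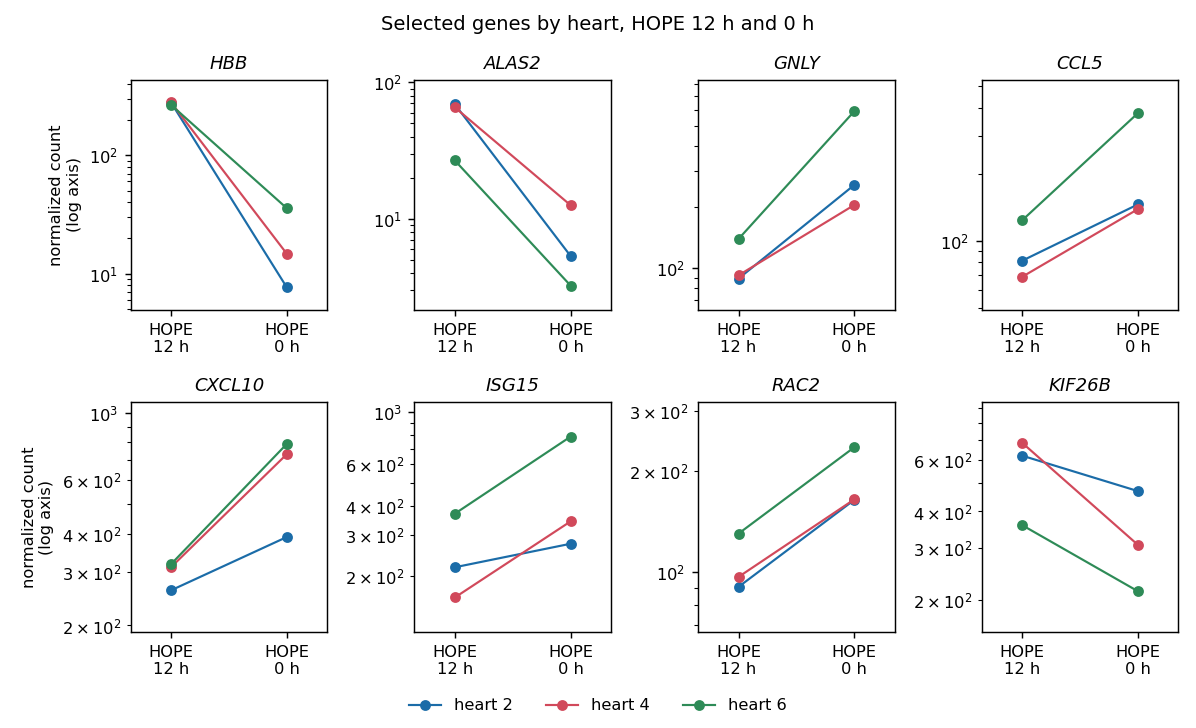
Normalised count (log axis) of 8 genes in hearts 2, 4 and 6 at HOPE 12 h (left) and 0 h (right), with a line for each heart. HBB and ALAS2 are higher at 12 h in every heart, GNLY, CCL5, CXCL10, ISG15 and RAC2 are lower in every heart, and KIF26B is higher in every heart with overlapping levels.

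Some other leukocyte genes gave lower levels as well. The sialomucin SPN (CD43), found on T cells and other leukocytes, was at 55.7, 30.8 and 50.7 normalised counts at 12 h, against 80.1, 58.7 and 131 at 0 h, and changed by -0.93 ± 0.22. The haematopoietic GTPase RAC2 was at 90.6, 97.0 and 130 at 12 h, against 164, 165 and 235 at 0 h. Heart 6 had the highest RAC2 level at both times, and no 12 h level reached a 0 h level. RAC2 changed by -0.82 ± 0.20, in near-equal steps of -0.85, -0.76 and -0.84 in the 3 hearts (limma, adjusted p = 0.998 for SPN and RAC2). The lymphocyte protease CTSW changed by -0.81 ± 0.24. Of 19 tested monocyte and macrophage markers 4 were lower and 2 higher in all 3 hearts, near the 14.6% and 15.0% of all genes, and 10 were lower in both of hearts 2 and 4, against 25.8% of all genes. Their median was 0.04, -0.07 without the 0 h library of heart 6, and -0.12 when genes with a mean of at least 1 entered. Their summed level was 10538, 9728 and 11901 at 12 h, against 11054, 10185 and 10070 at 0 h. Of 15 B and plasma cell markers 5 were tested and 3 were lower in all 3 hearts, against 14.6% of all genes. By mean change, 3 of these 5 were negative and 2 positive, with a median of -0.20, or -0.11 without the 0 h library of heart 6. The plasma cell chaperone MZB1 changed most of the 5, at -1.54 ± 0.60. Only 3 of 20 neutrophil and mast cell markers passed the filter on low values.

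Interferon-induced chemokines and antiviral genes were lower at 12 h. CXCL10 (chromosome 8, 71693641 to 71695948), a chemokine that draws activated T cells, was at 261, 311 and 318 normalised counts at 12 h, against 390.4, 730.4 and 789 at 0 h. Heart 2 had the lowest level at both times and the groups did not overlap. The change was -1.04 ± 0.25 (limma, adjusted p = 0.998; DESeq2 -1.06, adjusted p = 0.0137). Its neighbour and relative CXCL9 (chromosome 8, 71665541 to 71670236) was at 199, 251 and 158 at 12 h, against 387, 326 and 461 at 0 h, again without overlap, and changed by -0.95 ± 0.32. The ubiquitin-like protein ISG15 was at 219, 162 and 369.6 at 12 h, against 275, 343 and 787 at 0 h, and its groups overlapped because heart 6 was high at both times. It changed by -0.83 ± 0.22. Of 40 genes in the interferon list 37 were tested: 26 were lower in all 3 hearts and none was higher in all 3, against 14.6% and 15.0% of all genes. No member passed an adjusted p of 0.05, and 15 were lower at an unadjusted p under 0.05, against 2.14% of all genes. The list's median was -0.37, with -0.21, -0.21 and -0.72 in hearts 2, 4 and 6, and -0.19 without the 0 h library of heart 6. The RNA-binding antiviral proteins IFIT1, IFIT2 and IFIT3 changed by -0.68 ± 0.25, -0.66 ± 0.28 and -0.68 ± 0.19, and DESeq2 called all 3, with adjusted p of 0.00947, 0.0487 and 0.0254. The antiviral GTPases GBP1 and MX1 changed by -0.59 ± 0.22 and -0.49 ± 0.19, and the mitochondrial protein IFI6 by -0.53 ± 0.18. GBP1 was at -0.37 without the 0 h library of heart 6.

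Genes of antigen presentation followed the same direction. Of 24 genes in that list 12 were tested, all had a negative mean change, and 10 were lower in all 3 hearts, against 14.6% of all genes. Their median was -0.33, with -0.26, -0.15 and -0.48 in hearts 2, 4 and 6, and -0.19 without the 0 h library of heart 6. The invariant chain CD74, which guides class II molecules, was at 7913, 8535 and 15227 normalised counts at 12 h, against 9589, 12064 and 22430 at 0 h. Each heart was lower than itself at 0 h, yet the groups overlapped because heart 6 was high at both times. CD74 changed by -0.45 ± 0.16, the class II peptide loader SLA-DMA by -0.43 ± 0.16, the class I light chain B2M by -0.38 ± 0.17 and the peptide transporter TAP1 by -0.34 on the log2 scale (limma, adjusted p = 0.998 for each). Without that library B2M was at -0.24 and TAP1 at -0.14. TAP1 is also on the interferon list.

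Endothelial genes were lower mainly in heart 6, while the median of flow-responsive genes was below 0 in every heart and lowest in heart 6. All 18 endothelial markers had a negative mean change, and 8 were lower in all 3 hearts, against 14.6% of all genes. The median, however, was -0.19, -0.0012 and -0.64 in hearts 2, 4 and 6. Without the 0 h library of heart 6 the list's median of -0.29 became -0.04. Their summed level was 26412, 22770 and 44461 at 12 h, against 30212, 22930 and 69724 at 0 h. The adhesion molecule PECAM1 was at 4848, 4910 and 9285 at 12 h, against 5504, 5074 and 14141 at 0 h. Of 22 genes that respond to shear stress 21 were tested. Of these, 10 were lower and 0 higher in all 3 hearts, against 14.6% and 15.0% of all genes. Their median was -0.29 (-0.24, -0.30 and -0.57 by heart, and -0.16 without that library). The shear stress list was not split by the direction in which flow moves its members, so its median is not a measure of flow response. PLVAP and TEK are also on the endothelial list. The water channel AQP1 changed by -0.45 ± 0.23, the fenestral diaphragm protein PLVAP by -0.47 ± 0.20, the arginine-supplying enzyme ASS1 by -0.48 ± 0.15 and the Notch target HES1 by -0.39 ± 0.16 (limma, adjusted p = 0.998 for each). KLF2, the transcription factor that flow induces in endothelium, was at 928, 1089 and 3521 normalised counts at 12 h, against 1047, 1368 and 5276 at 0 h. Leukocyte adhesion genes were lower in all 3 hearts for 6 of 11 tested members, against 14.6% of all genes. The integrin ligand ICAM2 was at -0.48 ± 0.22 and the integrin chain ITGA4 at -0.52 ± 0.28. Without the 0 h library of heart 6, PLVAP was at -0.23, HES1 at -0.23, ICAM2 at -0.24 and ITGA4 at -0.32. The lower endothelial level stands beside the lower lymphocyte and interferon levels in heart 6, and its part in those results was not tested.

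**Figure D3:**
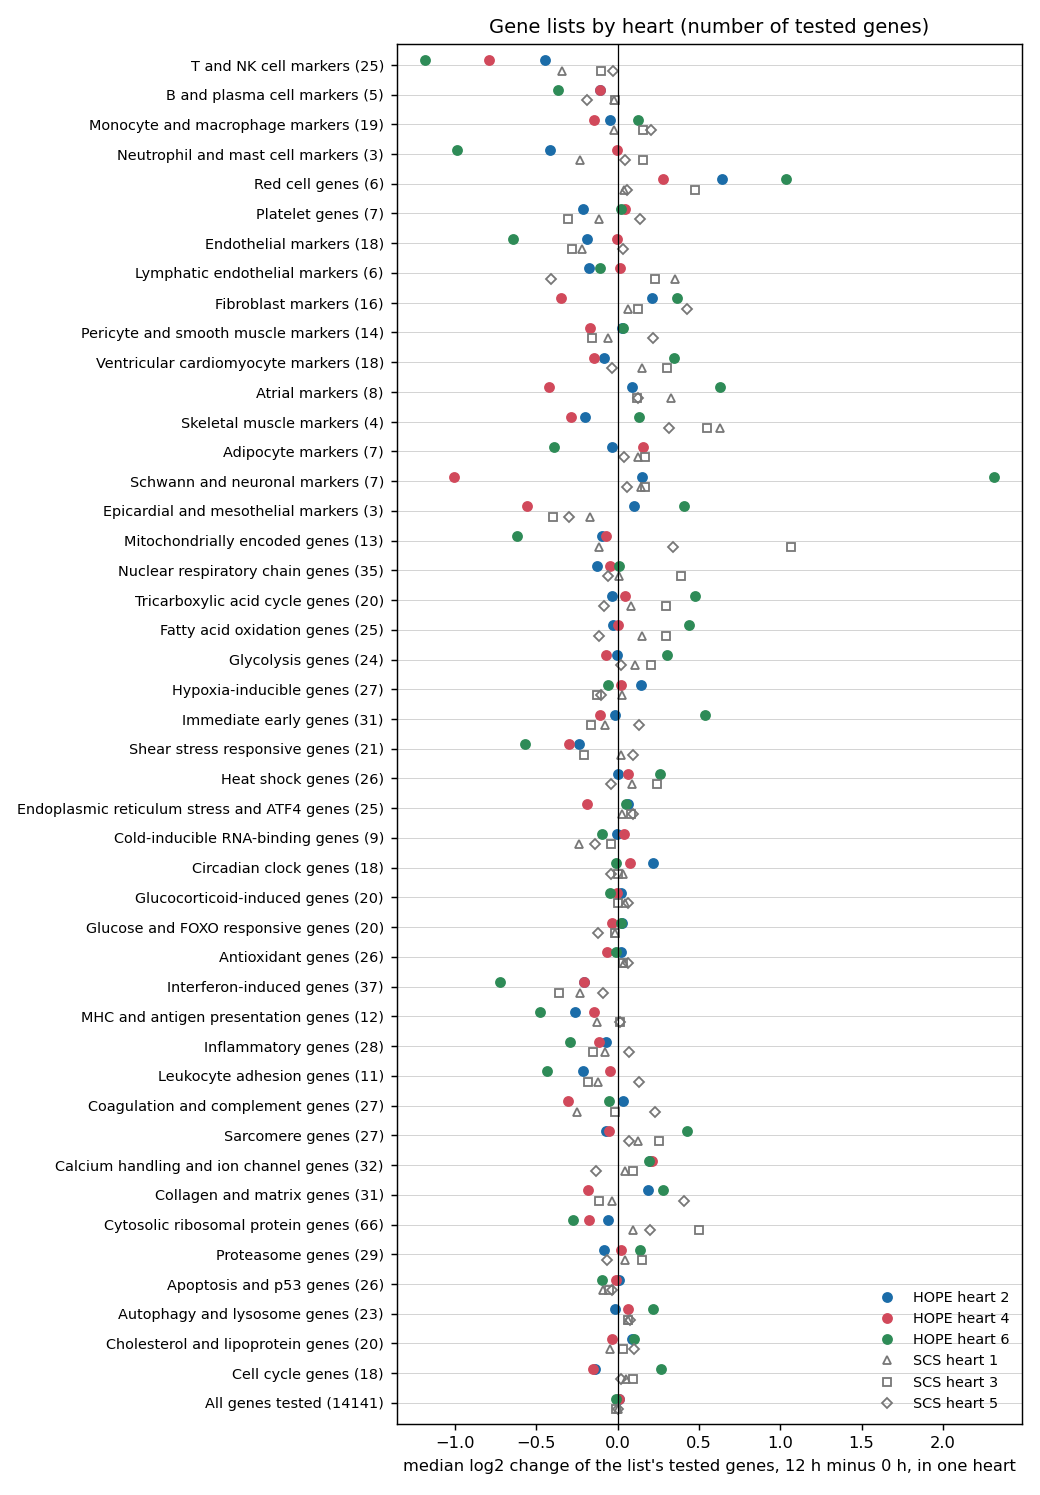
Median log2 change (x axis, 12 h minus 0 h) of the tested genes of each list in each heart, with the number of tested genes in brackets; filled circles are HOPE hearts 2, 4 and 6 and open symbols SCS hearts 1, 3 and 5. The T and NK cell markers lie below 0 in all 3 HOPE hearts at -0.45, -0.79 and -1.18, the calcium handling and ion channel genes lie together near 0.2, and many muscle and metabolic lists are set apart by heart 6.

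Genes of calcium handling and ion channels were also higher. The lists of heart muscle genes held about as many members higher in all 3 hearts as lower in all 3. The calcium handling and ion channel list was the most even between hearts, with medians of 0.20, 0.21 and 0.19 in hearts 2, 4 and 6. Of its 32 tested genes 11 were higher and 2 lower in all 3 hearts, against 15.0% and 14.6% of all genes. At an unadjusted p under 0.05 (limma) 3 were higher, against 1.82% of all genes. The subunits of the acetylcholine-gated potassium channel were both higher: KCNJ5 was at 1401, 6034 and 571 normalised counts at 12 h, against 985, 1138 and 434 at 0 h, and KCNJ3 at 632, 522 and 109 at 12 h, against 468, 371 and 62.3 at 0 h. The KCNJ5 level of heart 4 at 12 h was far above the rest, and its change of 1.10 ± 0.44 became 0.45 without heart 4 and 0.49 without its 12 h library. The L-type calcium channel CACNA1C changed by 0.32 ± 0.17, the sodium-calcium exchanger SLC8A1 by 0.35 ± 0.16 and the sarcoplasmic calcium pump ATP2A2 by 0.42 ± 0.20 (limma, adjusted p = 0.998 for each of these 5 genes). SLC8A1 was at 0.19 without the 0 h library of heart 6. Of 27 tested sarcomere genes 5 were higher and 4 lower in all 3 hearts, with medians of -0.07, -0.05 and 0.43 in hearts 2, 4 and 6. Their median over all hearts was 0.09, and -0.12 without that library. Of 18 ventricular cardiomyocyte markers 3 were higher and 4 lower in all 3 hearts, with medians of -0.08, -0.15 and 0.34 by heart, and 0.04 over all hearts against -0.18 without that library. Another list with more higher members was that of autophagy and lysosome genes. Of its 23 tested genes 7 were higher and 0 lower in all 3 hearts, with medians of -0.01, 0.06 and 0.22 by heart.

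Among the 12 highest changes were several muscle and transcription factor genes. The rule that picked those 12 required a higher level at 12 h in every heart. The kinesin-like KIF26B (chromosome 10, 17708365 to 18220052) was at 618, 683 and 359 normalised counts at 12 h, against 469, 308 and 215 at 0 h. Heart 6 was lowest at both times, and the change was 0.76 ± 0.18 (limma, adjusted p = 0.998; DESeq2 0.76, adjusted p = 0.00947). The sarcomere protein myopalladin (MYPN) was at 2008, 2269.6 and 479 at 12 h, against 1566, 1296 and 224 at 0 h. DESeq2 called it, with a change of 0.73 and an adjusted p of 0.00566. The muscle methyltransferase SMYD1 was at 7587, 4702 and 1280.4 at 12 h, against 4391, 3884 and 410.5 at 0 h, and changed by 0.90 ± 0.31, or 0.52 without the 0 h library of heart 6. The cardiac transcription factors TBX20 and PROX1 changed by 0.79 ± 0.33 and 0.79 ± 0.43, and the immunoglobulin superfamily member IGSF9B by 1.01 ± 0.33 (DESeq2 1.01, adjusted p = 0.0137). DESeq2 also called the adaptor LPP, the protocadherin PCDH7 and the prostaglandin receptor PTGFR, with changes of 1.18, 0.67 and 0.67 and adjusted p of 0.00566, 0.0236 and 0.049. Its remaining 3 higher calls were the unnamed genes ENSSSCG00000060206, ENSSSCG00000048752 and ENSSSCG00000033894. Also among the 12 highest were the actin-binding protein XIRP1, PROB1 and FEM1A, at 0.86, 0.86 and 0.80, or 0.21, 0.20 and 0.36 without the 0 h library of heart 6. XIRP1 was at 4216, 5191 and 5134 at 12 h, against 3649, 5087 and 1005 at 0 h. The fatty acyl reductase FAR2 and the nuclear receptor NR4A3 completed the 12, at 0.77 ± 0.28 and 0.77 ± 0.51, or 0.47 and 0.47 without that library.

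Among the 12 lowest changes were also genes of other kinds. The opioid precursor PDYN was at 133, 5.35 and 13.03 normalised counts at 12 h, against 560.4, 883 and 25.9 at 0 h, a change of -3.38 ± 1.18 that rested largely on heart 4 (limma, adjusted p = 0.998; -1.50 without heart 4 and -5.10 without the 0 h library of heart 6). The epicardial transcription factor WT1 was at 62.3, 90.3 and 72.0 at 12 h, against 125, 92.2 and 215 at 0 h, and heart 4 hardly differed between times. The Cdc42 effector CDC42EP5 and C12orf75 changed by -0.75 ± 0.22 and -0.79 ± 0.43. The BMP target ID1 was at 568, 990.3 and 717 at 12 h, against 807, 1305 and 1086 at 0 h. DESeq2 called ID1 at -0.50 (adjusted p = 0.0144).

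Cytosolic ribosomal protein genes were slightly and widely lower. Of 77 genes 66 were tested: 51 were lower and 1 higher in all 3 hearts, against 14.6% and 15.0% of all genes. The median was -0.18 (-0.06, -0.18 and -0.27 in hearts 2, 4 and 6), and -0.10 with total-count scaling. In hearts 2 and 4 alone 51 of the 66 were lower in both, against 25.8% of all genes. RPL37, a large-subunit protein, was at 4655, 5717 and 8789.9 normalised counts at 12 h, against 4966, 7296 and 13013 at 0 h, and changed by -0.34 ± 0.14. FAU, the precursor of a small-subunit protein, changed by -0.32 ± 0.12, and RPL36A by -0.36 ± 0.13 (limma, adjusted p = 0.998 for each). These genes have many processed pseudogenes, to which the authors' counting may have assigned some of their reads. The 13 mitochondrially encoded genes, which specify respiratory chain and ATP synthase subunits, took 32.0% ± 2.41 of the normalised counts at 12 h and 35.8% ± 3.30 at 0 h (SD, n = 3). The difference was -1.27, -0.23 and -9.93 percentage points in hearts 2, 4 and 6 (mean -3.81; two-sided exact sign-flip permutation p = 0.25, the smallest that 3 pairs allow), or -0.75 points on average without heart 6.

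Energy metabolism otherwise differed by heart. The median of the 20 genes of the tricarboxylic acid cycle was -0.03, 0.04 and 0.47 in hearts 2, 4 and 6, that of 25 fatty acid oxidation genes -0.03, -0.00039 and 0.44, and that of 24 glycolysis genes -0.00096, -0.07 and 0.31. Only heart 6 moved by more than 0.1 on the log2 scale in these 3 lists. The cycle enzyme IDH3A was at 3812, 3715 and 939 normalised counts at 12 h, against 3516, 2989.7 and 360.3 at 0 h. It was higher in all 3 hearts, and heart 6 was lowest at both times. The median of 35 nuclear respiratory chain genes was -0.03 as deposited and 0.05 after scaling to total counts, so no direction is given for them.

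Stress-related lists showed small values. The 27 tested hypoxia-inducible genes had a median of 0.05 (0.15, 0.02 and -0.06 in hearts 2, 4 and 6). Of these, 4 were higher and 4 lower in all 3 hearts, near the 15.0% and 14.6% of all genes. The pyruvate dehydrogenase kinase PDK1 changed by 0.33 and the glycoprotein hormone STC1 by -0.46. Haem oxygenase HMOX1, which hypoxia and oxidants induce, was at 59.0, 72.2 and 85.7 normalised counts at 12 h, against 93.03, 104 and 121 at 0 h, and its groups did not overlap (-0.55 ± 0.22; limma, adjusted p = 0.998). The mitochondrial superoxide dismutase SOD2 changed by 0.40 ± 0.19, or 0.26 without the 0 h library of heart 6. Of 9 cold-inducible RNA-binding genes none was higher or lower in all 3 hearts. Cold-inducible CIRBP was at 2781, 3368 and 3455 at 12 h, against 2791, 3310.4 and 3336 at 0 h, and RBM3 at 1386, 1535 and 1926 at 12 h, against 1253, 1875 and 2069 at 0 h. Both genes differed by less between times than between hearts, and the sign of their mean change turned under other settings. Of 26 heat shock genes 7 were higher and 2 lower in all 3 hearts, against 15.0% and 14.6% of all genes. HSP90AB1 was at 0.39 ± 0.21. Without the 0 h library of heart 6 the median of the heat shock list was -0.02, against 0.13 with it, and HSP90AB1 was at 0.19.

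Among clock genes HLF gave an even change, while immediate early genes differed by heart. The clock output regulator HLF was at 1003, 1039 and 876 normalised counts at 12 h, against 762, 836 and 687 at 0 h. Each heart was higher at 12 h by a similar step, the groups did not overlap, and the change was 0.35 ± 0.13 (limma, adjusted p = 0.998). The repressors CRY2 and BHLHE40 changed by 0.46 ± 0.20 and 0.46 ± 0.20 and the nuclear receptor RORA by 0.53 ± 0.31. CRY2 and BHLHE40 were at 0.19 and 0.22 without the 0 h library of heart 6. In all, 5 of 18 tested clock genes were higher in all 3 hearts and none lower, against 15.0% and 14.6% of all genes. Of 31 immediate early genes 7 were higher and 7 lower in all 3 hearts, beside the same 15.0% and 14.6% of all genes. Medians of the immediate early list were -0.02, -0.11 and 0.54 in hearts 2, 4 and 6. The transcription factor EGR1 was at 300.04, 605 and 824 at 12 h, against 230.3, 479 and 344 at 0 h. ATF3 was at 113, 360.4 and 7702 at 12 h, against 139, 319 and 1707 at 0 h, so that heart 6 was high at both times and heart 2 was not higher at 12 h. The cathepsin gene CTSL was at 0.88 ± 0.76 and the serine synthesis enzyme PHGDH at 1.10 ± 0.48, with PHGDH at 19.1, 31.4 and 21.9 at 12 h, against 12.2, 8.38 and 11.3 at 0 h.

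The 3 hearts shared little of the change beyond these groups. Across the 14141 genes the 12 h minus 0 h changes correlated with r = 0.03 between hearts 2 and 4, 0.21 between hearts 2 and 6 and -0.17 between hearts 4 and 6; this is a description across genes, which are not independent replicates. The number of genes at least 2-fold apart between times was 491 (3.47%) in heart 2, 860 (6.08%) in heart 4 and 931 (6.58%) in heart 6. Heart 4 was set apart by the peptide genes NPPA and NPPB and the atrial gene MYL4. The atrial markers as a list did not all follow. Of 8 tested, 3 had a positive and 5 a negative mean change, with medians of 0.09, -0.42 and 0.63 in hearts 2, 4 and 6. Their summed level in heart 4 was 53045 at 12 h, against 40929 at 0 h. NPPA was at 1581, 19.4 and 844 normalised counts in hearts 2, 4 and 6 at 12 h, against 2080.1, 3679 and 417 at 0 h. The B-type peptide NPPB was at 493, 6.02 and 1088 at 12 h, against 656, 255 and 148 at 0 h. The atrial light chain MYL4 was at 216, 62.2 and 123 at 12 h, against 442, 1994 and 61.5 at 0 h. In all 3 genes heart 6 had the opposite sign to heart 4. The Wnt antagonists DKK3 and FRZB followed, with changes of -4.12 and -4.05 in heart 4, 0.75 and 0.47 in heart 2, and 1.88 and 2.16 in heart 6. In heart 6 the contractile genes were low at 0 h beside hearts 2 and 4. MYH7 was at 546669, 501376 and 368377 normalised counts at 12 h, against 528134, 510289 and 179022 at 0 h, and the thin filament cap TMOD1 at 3159.99, 2494 and 1173 at 12 h, against 2785, 2497 and 364 at 0 h. Hearts 2 and 4 hardly moved for either gene. Whether the biopsies of heart 4 or heart 6 came from the same site at both times is not stated, and its part in these differences was not tested.

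**Figure D4:**
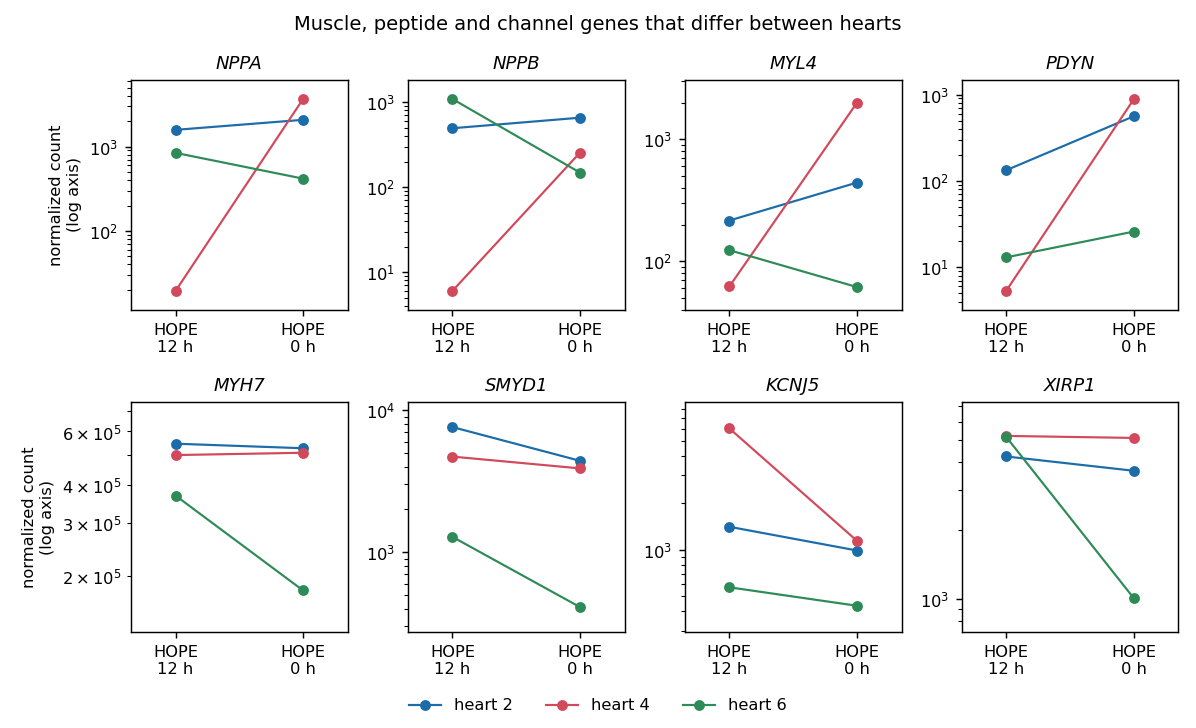
Normalised count (log axis) of 8 muscle, peptide and channel genes in hearts 2, 4 and 6 at HOPE 12 h (left) and 0 h (right), with a line for each heart. NPPA, NPPB and PDYN are lowest in heart 4 at 12 h, and MYH7, SMYD1 and XIRP1 are lowest in heart 6 at 0 h. MYL4 is about equally low in heart 4 at 12 h and in heart 6 at 0 h.

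No difference between the conditions passed when the change at 12 h was compared with that in SCS hearts. SCS hearts 1, 3 and 5 also had 0 genes at an adjusted p under 0.05, with 657 (4.65%) at an unadjusted p under 0.05. In all 3 SCS hearts 2602 genes (18.4%) were higher and 2684 (19.0%) lower, and 41 (0.290%) were at least 1.5-fold higher and 66 (0.467%) at least 1.5-fold lower. For the change at 12 h in HOPE minus that in SCS, limma called 0 genes, with 652 (4.61%) at an unadjusted p under 0.05. HBB was at 9.89, 33.8 and 57.4 normalised counts in SCS hearts at 12 h, against 22.9, 18.03 and 55.2 at 0 h, and its change differed by 4.08 ± 1.05 between HOPE and SCS (limma, adjusted p = 0.976). GNLY was at 343, 702 and 342 in SCS hearts at 12 h, against 335, 721 and 289 at 0 h, and the difference was -1.66 ± 0.40 (limma, adjusted p = 0.976). In neither gene did the SCS hearts move in a common direction. By list, the median change in HOPE against that in SCS was -0.96 against -0.16 for T and NK cell markers, -0.37 against -0.19 for interferon-induced genes and -0.33 against -0.02 for antigen presentation. The medians of interferon-induced genes were below 0 in all 3 HOPE hearts (-0.21, -0.21 and -0.72) and in all 3 SCS hearts (-0.23, -0.36 and -0.09), so that HOPE hearts 2 and 4 lay within the range of the SCS hearts. In all 3 SCS hearts 19 of the 37 were lower and 2 higher, against 19.0% and 18.4% of all genes. The T and NK cell medians were also below 0 in both conditions, at -0.45, -0.79 and -1.18 in HOPE hearts and -0.34, -0.10 and -0.03 in SCS hearts. For calcium handling and ion channel genes the list median was 0.21 in HOPE against -0.10 in SCS, and for ribosomal protein genes -0.18 against 0.26. The ribosomal medians were below 0 in all 3 HOPE hearts and above 0 in all 3 SCS hearts (0.09, 0.50 and 0.20). No ribosomal gene passed for the difference, and 43 of the 66 had an unadjusted p under 0.05. For SCS hearts the mitochondrially encoded share differed by -2.76, 14.05 and 4.80 percentage points between 12 h and 0 h (two-sided exact permutation p = 0.3 for HOPE against SCS, where 3 against 3 can reach 0.1).

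Later biopsies of the same HOPE hearts gave like values for the leading genes, although each comparison shares the 0 h libraries. The change from 0 h was 4.02, 4.37 and 3.70 at 12, 24 and 48 h for HBB, -1.58, -1.15 and -1.24 for GNLY, and -1.15, -1.01 and -0.93 for CCL5. HBB spread widely after 12 h, with 1892, 89.4 and 254 normalised counts in hearts 2, 4 and 6 at 24 h and 130.1, 135 and 611 at 48 h. CX3CR1 stood lower at each later time, with -0.62, -0.85 and -1.54 at 12, 24 and 48 h. The T and NK cell list had medians of -0.96, -0.85 and -0.98 at these times, and the interferon list -0.37, -0.33 and -0.32.

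**Figure D5:**
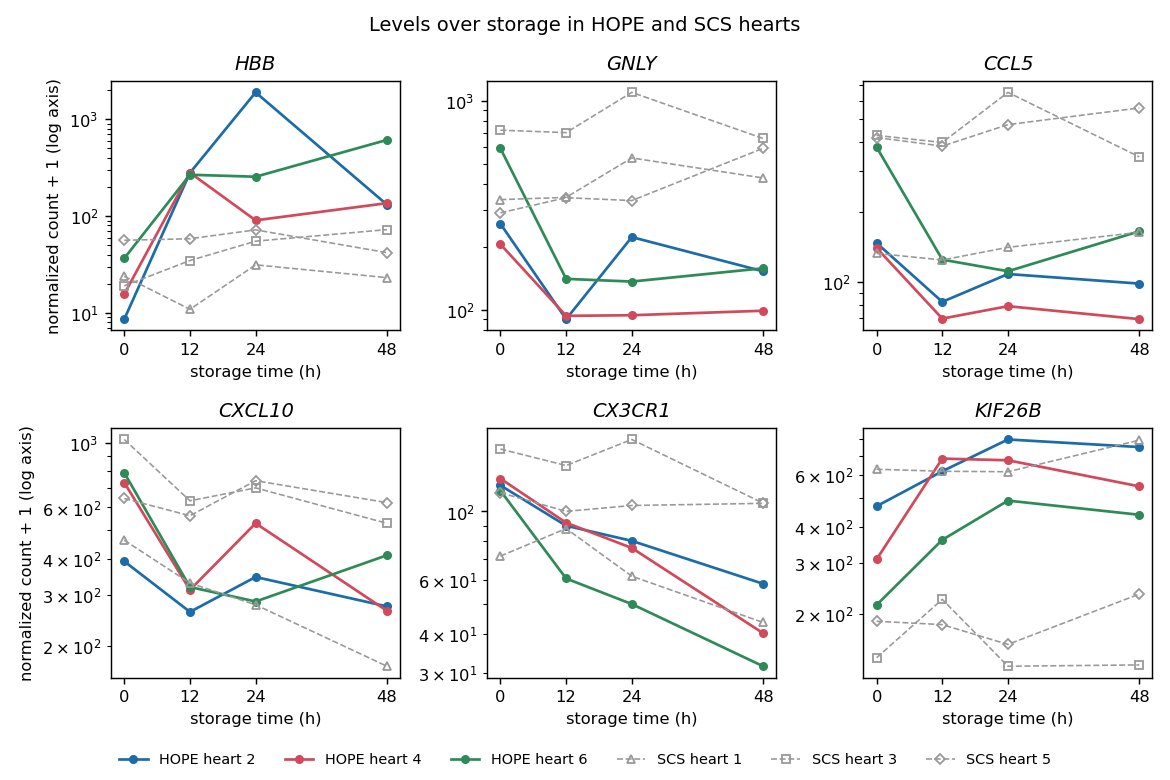
Normalised count plus 1 (log axis) of 6 genes over storage time in hours, with a solid line for each HOPE heart and a dashed line for each SCS heart. HBB is higher from 12 h on in the HOPE hearts, GNLY and CCL5 are lower in them at 12 h than at 0 h, and the SCS hearts show no such step.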

How the data were processed

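The authors deposited normalised counts of the storage libraries, a signal made by scaling each library's gene counts with a single size factor, as the table's header and values show. In each of the 24 libraries all values (100%) were whole multiples of its smallest value at a tolerance of 1e-06, which gave 19722065 to 35099406 reads. In 1 SCS library that step was close to 1, so recovery is less certain there, and the library entered no count test. A stranded poly(A) kit was used on RNA above a set integrity limit, per the labels' protocols. Strand use in counting is not stated. The submitters' processing notes name the aligners STAR 2.5.2b and HISAT2 2.2.1, the counters Subread 1.5.2 and featureCounts 2.0.6, DESeq2 and Sscrofa11.1, without saying which served these libraries. The 7 libraries taken after rewarming were not used here.

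Values were fitted once over the 24 libraries with limma 3.58.1 in R 4.3.3 (mean trend) on log2(value + 1), with the pig as a fixed block, which left 12 residual degrees of freedom. This scale understates fold changes where counts are low. The minimum mean was 10, and Benjamini-Hochberg adjustment over all tested genes used a threshold of 0.05. The pig numbers pair the libraries because the labels give the same animal; deviations from the group means correlated with r = 0.62, 0.41 and 0.65 in same-pig pairs and -0.50 to 0.05 in others. edgeR 4.0.16 and DESeq2 1.42.0 were run on the recovered reads of the 12 HOPE libraries with the pig as a block. The fit was tested on simulated data.

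Genes were named by rule: those that passed, the 12 highest and 12 lowest changes among genes with a symbol, a mean of at least 100 and 1 direction in all 3 hearts, the 6 smallest p, and the list members that changed most. Genes beyond the rule were chosen after their values were seen. The comparison, its 45 gene lists and the rule were chosen with earlier results of these data known. Lists are described by counts and medians, with no set test. Symbols came from the table, or for 109 genes from a reference table, and positions, matched by symbol, from RefSeq for Sscrofa11.1. Alternatives were other pseudocounts, filters, scalings, library sets and tools, and leaving out each heart.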

Additional observations from a re-analysis of the deposited data

Results flagged for a closer look

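Cytosolic ribosomal protein genes had a median log2 change of -0.18 at 12 h of HOPE and of 0.26 at 12 h of SCS, and the hearts of the conditions moved in opposite directions. The medians were -0.06, -0.18 and -0.27 in HOPE hearts 2, 4 and 6, and 0.09, 0.50 and 0.20 in SCS hearts 1, 3 and 5. The difference between the lists' medians was not tested. Gene by gene, limma called none of the 66 for the difference, with 43 at an unadjusted p under 0.05, against 4.61% of all genes tested.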

How the results depend on the processing

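limma called 0 genes in either direction at 12 h of HOPE under the other pseudocounts and filters, quantile normalization, scaling without mitochondrially encoded genes and the 12 HOPE libraries alone, and edgeR also called 0. Exceptions were 1 higher gene with total-count scaling and 1 with the 6 HOPE libraries alone (HBB in both, adjusted p of 0.00523 to 1 over 18 alternatives), 9 higher and 9 lower with DESeq2 (for its 15 calls with a symbol the adjusted p reached 1 under another alternative), and 1 lower (PADI2, -2.14, adjusted p = 0.00994) without the 0 h library of heart 6. The last setting, and that without the 12 h library of heart 4, were chosen after seeing the data. Without the replicate block, that is without pairing by pig, 0 genes passed and 75 had an unadjusted p under 0.05. Leaving out each heart gave 0 to 0 genes higher, 0 to 0 lower, 0 to 0 for HOPE minus SCS in each direction, and -5.602 to -0.75 percentage points for the mitochondrially encoded share. For HOPE minus SCS every setting run gave 0 calls; edgeR and DESeq2 were not run for it, because the recovery of whole reads was less certain in 1 SCS library.

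Of 2028 values of 114 named genes under the alternatives, 1999 kept direction and side of the threshold, 17 passed where the value reported did not, and 12 turned sign. These totals overstate the check. Leaving out the block, changing the filter or keeping only HOPE libraries cannot alter a gene's log2 change in this balanced design. No named gene passed in the main fit, so none could lose a call. Leaving out each heart, with the positive values when heart 4 was left out, gave -2.80 to 1.23 for NPPB, -3.95 to 0.31 for NPPA, -1.68 to 1.31 for DKK3, -1.79 to 1.31 for FRZB and -0.196 to 0.0212 for RBM3. Without heart 6 ATF3 turned negative in a range of -0.058 to 1.18. Without only the 12 h library of heart 4, NPPB, DKK3 and FRZB were 0.47, 0.62 and 0.64. Without the 0 h library of heart 6 CIRBP was -0.0257 and MYH7 -0.00918, and quantile normalization gave -0.0142 for CIRBP; leaving out each heart gave 0.0098 to 0.0377 for CIRBP and 0.0122 to 0.545 for MYH7. The causes were not tested. Of 810 list medians 34 moved by more than the spread between hearts. The medians likewise could not change without the block or with only HOPE libraries. Total-count scaling shifted the median of all genes to 0.09. Of 21313 genes the 14141 that reached the mean of 10 were tested, so genes at lower depth entered only under the looser filters.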
